A study of Apis cerana with 76 samples.

Results

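miR-14, miR-33, miR-278 and miR-375 are microRNAs (miRNAs) known for roles in energy metabolism and hormone signalling, and their levels were followed through the life cycle and the organs of the Asian honey bee, Apis cerana. Members were the entries carrying exactly these names, on either strand of the hairpin, in the authors' 2 count sheets. These were 5 of 146 entries over stages (miR-14-3p, miR-14-5p, miR-33-3p, miR-278-3p and miR-375-3p) and 3 of 171 entries over organs (miR-14-3p, miR-33-5p and miR-375-3p). The study profiled small RNAs of wild-type bees in 76 libraries, with 3 for each of 18 stage groups and 2 for each of 11 organ groups. The authors pooled the libraries of a group into 1 column of counts, so each level below is the authors' pooled value without a replicate error of its own.

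The queen groups of the stage series were larvae (QL), pupae with white eyes (QW), red eyes (QR) and dark red eyes (QDR), and adults (QA). Adult drones (D) were a further group. The remaining stages were egg, larvae L1 to L5, pupae with white eyes (W), red eyes (R), dark red eyes (DR) and dark red eyes and body (DRB), and adult workers, of which the authors' statistics sheet calls YA young nurses and OA old foragers. The labels give no caste for egg, L1 to L5 or the pupae without a Q. The organ groups were ovary of queens and workers, brain, ventriculus (the midgut) and rectum of drones and workers, testis and mucus gland of drones and venom gland of workers. Ages in days and the number of bees per library are not given in the sources used here.

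A miRNA is cut from a hairpin as a duplex of a 5p and a 3p strand, one of which is usually kept by the silencing complex and pairs with messenger RNAs through its seed. In flies, miR-14 limits fat storage and cell death and acts in ecdysone signalling and in the brain cells that make insulin-like peptides. miR-278 sets insulin responsiveness of the fly fat body. miR-33 lies in an intron of the sterol regulator SREBP in flies and mammals and acts on lipid genes, and miR-375 is known in mammals for its part in insulin secretion by the pancreas.

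The mature sequences are shown because the entries differ between strands and, under the same name, between the sheets. Each is given 5′ to 3′ as in the deposited sheets, and capitals mark the seed, bases 2 to 8.
miR-14-3p (stages): uCAGUCUUuuucucucuccuau
miR-14-3p (organs): uCAGUCUUuuucucucuccu
miR-14-5p (stages): gGGGGUGAgaaacuggcuuggcu
miR-33-3p (stages): cAAUACUUcuacagugcaacuc
miR-33-5p (organs): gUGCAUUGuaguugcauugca
miR-278-3p (stages): uCGGUGGGacuuucguccguuu
miR-375-3p (stages): uUUGUUCGuucggcucgaguua
miR-375-3p (organs): uUUGUUCGuucggcucgaguu
The organ entry of miR-14-3p lacks the last 2 bases of the stage entry and that of miR-375-3p the last 1, so levels were not compared between the sheets. The members of a sheet have different seeds, and no other entry of the same sheet shares a seed or a sequence with them. miR-14-5p holds 14 G or C among its 23 bases (60.9%), whereas miR-14-3p of the stage sheet holds 8 among 22 (36.4%). RNAduplex predicted 15 base pairs between the miR-14 strands (-19.1 kcal/mol) and 15 between the miR-33 strands, each listed in a different sheet (-17.4 kcal/mol).

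Libraries held 3342198 to 42423614 reads, and the columns 72873 (QA) to 19772824 (DRB) miRNA counts over stages and 184457 (worker rectum) to 8476499 (drone mucus gland) over organs. Set against the summed reads of the pooled libraries, the miRNA total was under 3% in egg, QL, QW, QR and QA and in worker ovary, worker venom gland and both rectum columns. Levels are given as CPM after scaling of the column totals by trimmed mean of M-values (TMM). Intervals in brackets are exact 95% intervals for counting error only, since no molecular identifiers are named for the reads. The members together made up 0.470% (R pupae) to 4.86% (adult drones) of the counts over stages, and 0.991% (queen ovary) to 5.34% (drone mucus gland) over organs. Fewer cells of a type and less RNA per cell cannot be told apart in whole animals or organs.

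The balance between the strands of miR-14 moved across the stages. miR-14-5p made up 68.5% (67.3 to 69.8) of miR-14 counts in egg and 63.0%, 62.7%, 47.5%, 44.7% and 34.9% in L1 to L5, so that each larval group with a higher number had a lower share, although the counting intervals of L1 and L2 overlapped. In pupae the share was 14.6% in W, 24.8% in R, 51.3% in DR and 67.0% in DRB, higher with each darker colour of eye and body. Among adult workers it was 7.86% (7.74 to 7.98) in OA, against 44.6% (44.3 to 44.8) in YA.

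Adult drones had the lowest share, 3.65% (3.61 to 3.69). In the queen series the share was 18.3% in QL, 28.6% in QW, 49.1% (47.3 to 50.8) in QR, 34.0% in QDR and 29.5% (25.7 to 33.6) in QA, the last on 156 counts of the 5p strand and 372 of the 3p strand. Over all 18 columns the 5p strand had more counts than the 3p strand in 5, which were egg, L1, L2, DR and DRB. The ratio within a column does not depend on the scaling between columns.

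**Figure D1:**
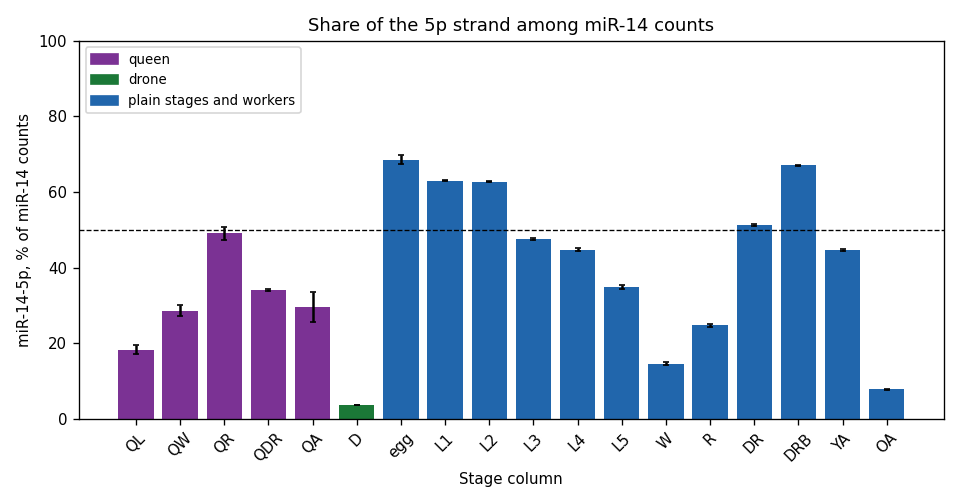
Share of miR-14-5p among miR-14 counts in percent (vertical axis) in 18 stage columns, with exact 95% counting intervals and a dashed line at 50%. The share was lower in each larval group from L1 to L5, was 14.6% in W and 67.0% in DRB pupae, and was lowest in adult drones at 3.65%.

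The log2 ratio of 5p to 3p counts averaged -0.76 ± 1.61 over the pupal columns (SD, n = 4) and 0.03 ± 0.72 over the larval columns (SD, n = 5). The difference of -0.80 was within the spread of the columns (exact two-sided permutation test, p = 0.3333; the smallest p this design allows is 0.0159). The pupal columns reached beyond the larval ones at both ends, with W lowest and DRB highest.

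Of the 17 hairpins with both strands listed over stages, 6 had both at a mean of at least 50 CPM. Among these, miR-14 had the largest SD of the log2 ratio over columns, 1.59, against a median of 0.99, with ratios of -4.72 to 1.12. Within the 6, miR-14, miR-281 and miR-927a were the 3 hairpins in which either strand could lead. Below that level either strand could also lead in miR-6000, miR-29b and miR-965. There miR-981, miR-6000, miR-279b, miR-79 and miR-2788 had larger SDs than miR-14, from 1.60 to 3.03. Adult drones were also the column with the lowest 5p to 3p ratio for miR-71 (1.80) and miR-927a (-0.99), thus for 3 of 6 hairpins, an observation made after the values were seen.

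**Figure D2:**
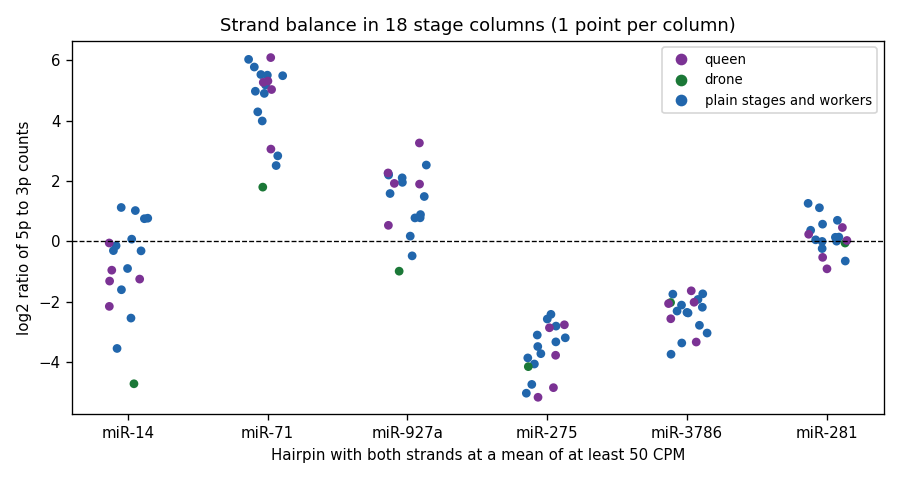
Log2 ratio of 5p to 3p counts (vertical axis, 0.5 added to each count) for the 6 hairpins with both strands at 50 CPM or more, 1 point per stage column, ordered by SD. miR-14 spread from -4.72 to 1.12, and points above the dashed line have more 5p than 3p counts.

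miR-14-3p was highest in adult drones at 42100 CPM, where it took 4.28% of counts, and its rank among the 146 entries lay between 6 and 23 over the columns. It stood at 3205 CPM in egg, at 14550, 14020, 20290, 8983 and 5917 CPM in L1 to L5, and at 3791, 2783, 2987 and 5720 CPM in W, R, DR and DRB. Adult workers had 10670 CPM (YA) and 14900 CPM (OA), and queens 5910 (QL), 3936 (QW), 2465 (QR), 5111 (QDR) and 4682 CPM (QA). All larval columns lay above all pupal ones with TMM, but with library totals DRB (6028 CPM) lay above L5 (5562 CPM). Adult workers and drones lay above the pupae and adult queens within the pupal range with either scaling.

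miR-14-5p followed another course. Its level was 6984 CPM in egg, 24760, 23600, 18370, 7258 and 3170 CPM in L1 to L5, and 649.8, 916, 3142 and 11610 CPM in W, R, DR and DRB. DRB exceeded W by 17.9-fold in miR-14-5p and by 1.51-fold in miR-14-3p. miR-14-5p stood at 8580 CPM in YA, 1271 CPM in OA and 1595 CPM in adult drones, and at 1326 to 2634 CPM over the queen columns. OA was thus below YA in the 5p strand (log2 ratio -2.76, -2.78 to -2.73) and above it in the 3p strand (0.48, 0.47 to 0.49), with library totals as scaling likewise (-1.86 and 1.38).

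miR-33-3p was the scarcest member, with ranks of 54 to 91 among 146 entries. Its level was 37.1 CPM in egg, 273, 287, 165, 71.9 and 62.7 CPM in L1 to L5, and 25.1, 29.4, 27.6 and 39.8 CPM in W, R, DR and DRB. L1 and L2 were the highest columns, and the pupae lay below all larvae. Adult drones had 85.4 CPM, adult workers 42.2 (YA) and 69.3 CPM (OA), and queens 71.9 (QL), 24.0 (QW), 25.3 (QR), 18.3 (QDR) and 37.8 CPM (QA). The QA value rests on 3 counts, which is the detection floor of 41.2 CPM before scaling, and carries no order.

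miR-278-3p had its lowest level in egg with TMM, 76.1 CPM (39 counts), but with library totals DRB (128 CPM) lay below egg (132 CPM). It was highest in adult drones, at 1715 CPM. In L1 to L5 it lay at 689, 691, 833, 863 and 874 CPM, the narrowest larval range of the 5 members. It stood at 403, 455, 303 and 122 CPM in W, R, DR and DRB, and at 132 CPM in YA and 642 CPM in OA. Queens had 634 (QL), 538 (QW), 499 (QR), 311 (QDR) and 201 CPM (QA), a lower value at each later stage. The counting intervals of QL and QW, of QW and QR, and of QDR and QA overlapped, so only QR and QDR were resolved. The QA value rests on 16 counts.

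**Figure D3:**
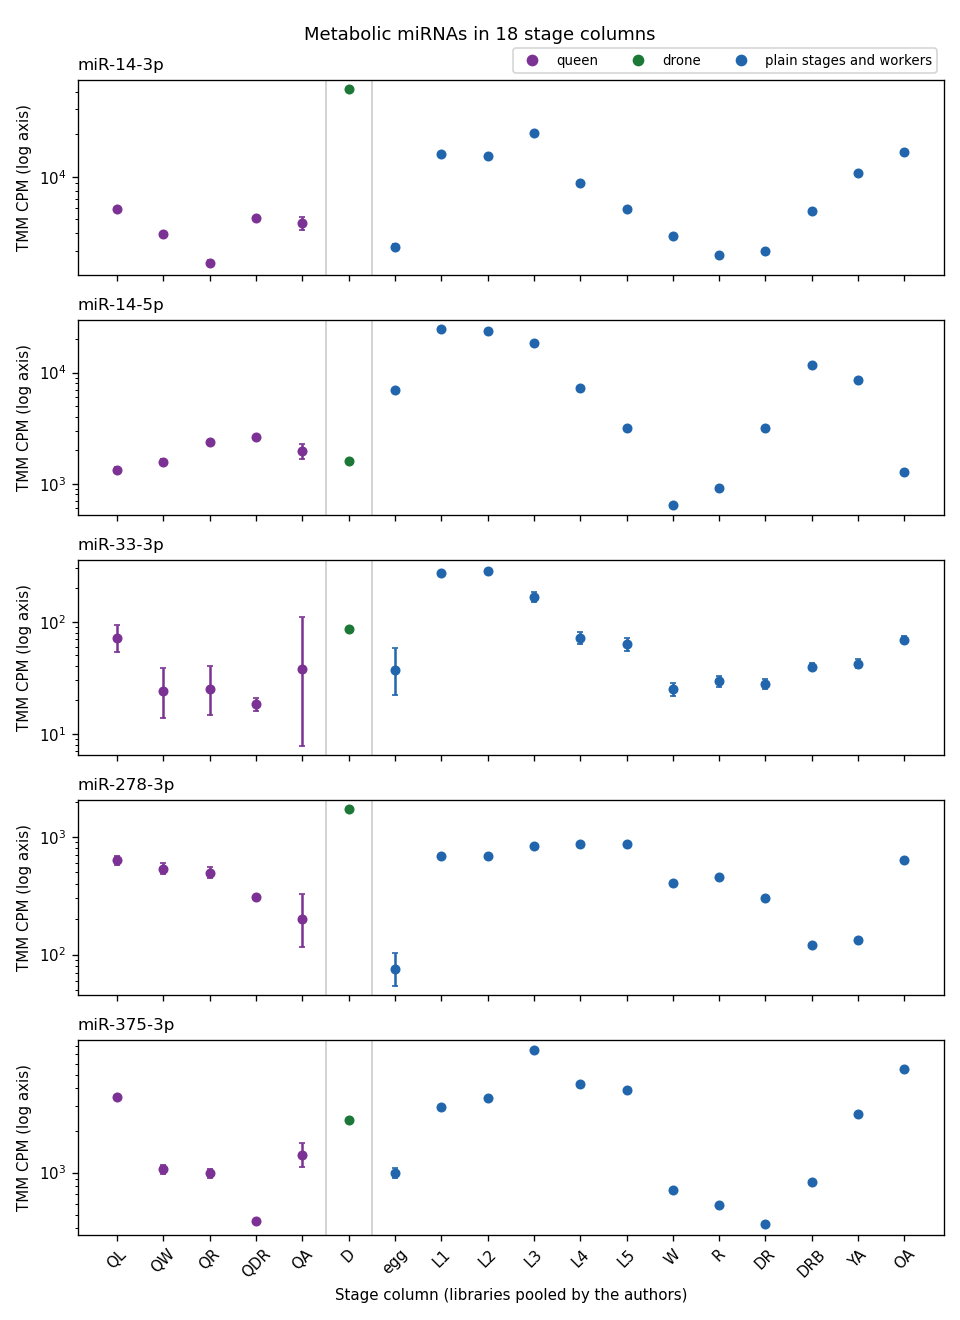
Levels of the 5 members in 18 stage columns as TMM-scaled CPM on a log axis, with exact 95% counting intervals; queen, drone and other stages are coloured. miR-14-3p and miR-278-3p were highest in adult drones (42100 and 1715 CPM), the other 3 in larvae; with library totals miR-375-3p was highest in OA (10600 CPM).

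miR-375-3p was highest in L3 at 7549 CPM with TMM, whereas with library totals OA was highest at 10600 CPM and L3 had 4360 CPM. It stood at 997 CPM in egg, at 2926 and 3429 CPM in L1 and L2, and at 4295 and 3920 CPM in L4 and L5. The W, R, DR and DRB pupae had 751, 586, 426 and 863 CPM, all under the lowest larval column. Adult drones had 2390 CPM, YA 2633 CPM and OA 5460 CPM. In queens it stood at 3468 CPM in QL, at 1059 CPM in QW, 987 CPM in QR and 453 CPM in QDR, and at 1347 CPM in QA.

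Counted over neighbours in the order of levels, counting intervals overlapped in 4 of 17 pairs for miR-14-3p, 5 for miR-14-5p, 4 for miR-375-3p, 11 for miR-278-3p and 14 for miR-33-3p. For miR-33-3p the order below L3 was therefore mostly unresolved. For miR-14-3p the unresolved neighbours were L5 with QL, QL with DRB, QDR with QA, and QW with W.

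The first comparison, of pupae with larvae, concerns entry into metamorphosis. miR-375-3p, miR-33-3p, miR-14-3p and miR-278-3p fell in pupae, and miR-14-5p did not pass the test. miR-375-3p averaged 656 ± 191 CPM over 4 pupal columns and 4424 ± 1822 CPM over 5 larval columns (SD), a log2 change of -2.75 (SE 0.45, adjusted p = 0.000756). miR-33-3p averaged 30.5 ± 6.46 CPM in pupae and 172 ± 107 CPM in larvae, a log2 change of -2.50 (SE 0.50, adjusted p = 0.00249). These 2 calls held under all 15 alternatives tried.

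miR-14-3p averaged 3820 ± 1339 CPM in pupae and 12750 ± 5537 CPM in larvae (log2 change -1.74, SE 0.42, adjusted p = 0.00548). miR-278-3p averaged 321 ± 147 CPM in pupae and 789.9 ± 92.5 CPM in larvae (-1.30, SE 0.49, adjusted p = 0.048). The call of miR-278-3p was kept under 1 of 15 alternatives and was lost when any single column of either group was left out, with adjusted p up to 0.23; that of miR-14-3p was lost without DR (adjusted p 0.114), without L1 (0.0926) and with only the 9 columns compared (0.0522). miR-14-5p averaged 4079 ± 5142 CPM in pupae and 15430 ± 9739 CPM in larvae (-1.92, SE 0.88, adjusted p = 0.0975), and without DRB its change was -3.30 with an adjusted p of 0.0111.

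The tests were edgeR's quasi-likelihood tests with Benjamini-Hochberg adjustment, in which columns stand in for replicates. Of all 145 entries 40.0% passed, 22.1% as lower in pupae and 17.9% as higher, beside 4 of 5 members lower and 0 higher. The marker lists moved too. The 2 midgut markers summed to 117 to 801 CPM in pupae and 993 to 3092 CPM in larvae, the 2 muscle markers to 78590 to 269500 CPM in pupae and 22420 to 64510 CPM in larvae, and 4 of 5 brain markers to 4965 to 8178 CPM in pupae and 1838 to 3077 CPM in larvae. The muscle sum was mostly miR-1-3p. miR-133-3p by itself overlapped, at 182.3 to 1316 CPM in pupae and 183.7 to 366.4 CPM in larvae. The brain sum was mostly miR-7-5p and miR-2796-3p. The brain marker miR-932-5p by itself overlapped, at 20.09 to 35.13 CPM in pupae and 8.485 to 21.61 CPM in larvae. So did the midgut marker miR-281-5p, at 61.25 to 565 CPM in pupae and 519.7 to 1544 CPM in larvae. The part of the marker lists in the members' changes was not tested. The median log2 change was -1.92 over the members and -0.15 over all entries. The levels in pupae were all below those in larvae for 4 of 5 members with TMM, all but miR-14-5p, but with library totals only for miR-33-3p and miR-375-3p. With that scaling miR-14-3p stood at 6028 CPM in DRB, against 5562 CPM in L5, and miR-278-3p at 509.6 CPM in W, against 481 CPM in L3. With TMM the columns of 30.1% of all entries were without overlap in one direction or the other. With library totals as scaling the median of all entries moved by 0.45, and 18 entries were lower and 37 higher, against 32 and 26 with TMM.

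The second comparison followed the step from pupae to adult workers. miR-375-3p and miR-14-3p rose in adult workers. miR-375-3p averaged 4046 ± 1999 CPM in adult workers (n = 2) and 656 ± 191 CPM in pupae (n = 4), a log2 change of 2.62 (SE 0.52, edgeR adjusted p = 0.0228). miR-14-3p averaged 12790 ± 2986 CPM in adult workers and 3820 ± 1339 CPM in pupae, a change of 1.74 (SE 0.50, edgeR adjusted p = 0.0454). miR-33-3p (0.87, SE 0.58), miR-14-5p (0.27, SE 1.06) and miR-278-3p (0.27, SE 0.61) did not pass.

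In this comparison 7.59% of the 145 entries passed, 4.83% as higher and 2.76% as lower, and the median log2 change was 0.87 over the members and -0.41 over all entries. Columns did not overlap for 3 of 5 members, miR-14-3p, miR-33-3p and miR-375-3p, and for 37.0% of all entries. The muscle markers summed to 175400 to 313800 CPM in adult workers and 78590 to 269500 CPM in pupae, and the midgut markers to 583.5 to 660 CPM in adult workers and 117 to 801 CPM in pupae, and their part in these changes was not tested. The calls depended on single columns. That of miR-375-3p was lost without OA (adjusted p 0.213) or R (0.0541), and that of miR-14-3p without OA (0.391), DR (0.153), R (0.117), W (0.0815) or YA (0.0688), while both changes stayed positive. With only the 6 columns compared both had an adjusted p of 0.112. Without OA the change of miR-278-3p was -1.28, and without YA that of miR-14-5p was -2.06.

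**Figure D4:**
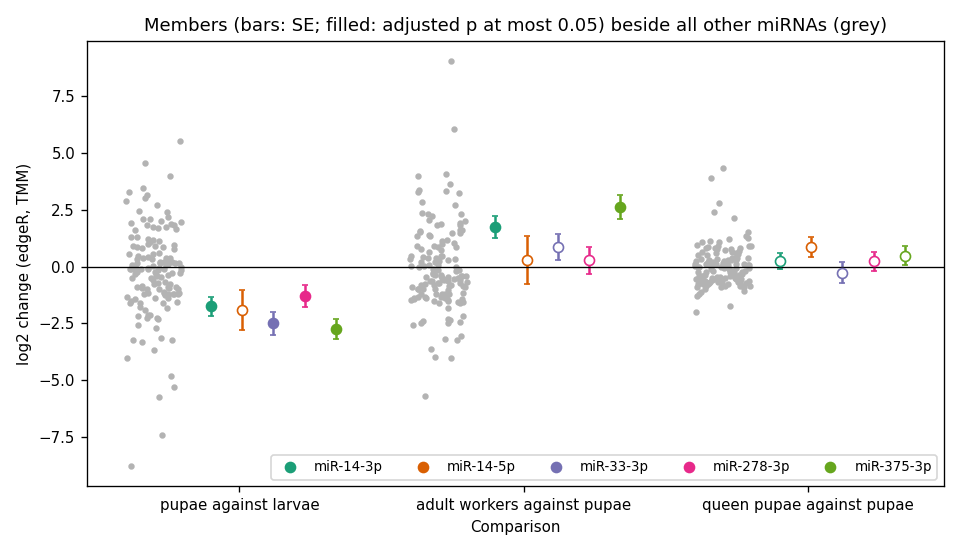
Log2 changes of the 5 members with their SE (coloured; filled where the adjusted p was at most 0.05) beside all other entries (grey) in 3 comparisons of stage columns. Members lay at -2.75 to -1.30 for pupae against larvae and at 0.27 to 2.62 for adult workers against pupae.

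Queen pupae were compared with the groups W, R and DR, colour by colour. None of the 5 members passed, and 3 of 134 entries did (2.24%). miR-14-5p stood at 1579 CPM in QW, 2374 CPM in QR and 2634 CPM in QDR, against 649.8 CPM in W, 916 CPM in R and 3142 CPM in DR (log2 change 0.85, SE 0.44, edgeR adjusted p = 0.425). It was higher in the queens of the white-eyed and red-eyed pairs and lower in the dark-red-eyed pair. Without QDR or without DR its change was 1.24. The dark-red-eyed column left was then fitted by its own term, so the change rested on W, R, QW and QR. In each of these settings 63 of 137 entries passed, and dark red eyes were left with 1 column. miRNAs made up 1.79% of reads in QW and 2.12% in QR, against 21.98% in W and 30.2% in R. The part of this difference in the result was not tested.

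miR-14-3p had 3936 CPM in QW, 2465 CPM in QR and 5111 CPM in QDR, against 3791 CPM in W, 2783 CPM in R and 2987 CPM in DR (0.25, SE 0.36). miR-375-3p had a change of 0.48 (SE 0.40). Without QDR or DR it was 0.53, again resting on W, R, QW and QR. Changes were 0.23 (SE 0.41) for miR-278-3p and -0.27 (SE 0.47) for miR-33-3p. All 5 members overlapped between the queen and the other pupae with TMM. With library totals miR-33-3p did not (16.1 to 24.7 CPM in queen pupae, against 25.1 to 31.7 CPM in W, R and DR). It held 16 counts in QW and 17 in QR. The counting intervals of its log2 ratios with TMM spanned 0 for QW to W (-0.898 to 0.666) and QR to R (-1.015 to 0.488). The share of all entries without overlap was not computed with library totals. With TMM the columns of 11.0% of all entries did not overlap.

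Adult drones, adult queens and queen larvae had 1 column each and were not tested. miR-278-3p was 12.95-fold higher in D than in YA and 2.67-fold higher than in OA, and miR-14-3p 3.94-fold and 2.83-fold higher. With library totals the log2 ratios of D to OA were 0.48 for miR-278-3p and 0.56 for miR-14-3p, both smaller than with TMM. miR-14-5p in D was below YA (log2 ratio -2.43) and above OA (0.33), but below OA with library totals (-0.61). QA lay below D in miR-14-3p (log2 ratio -3.17, -3.32 to -3.02) and miR-278-3p (-3.09, -3.90 to -2.39), on 372 and 16 counts in QA. QL was close to L5 in miR-14-3p (5910 against 5917 CPM) and below it in miR-14-5p (1326 against 3170 CPM).

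Across the 18 stage columns miR-14-3p and miR-33-3p had the highest likeness among member pairs, with a Spearman rho of 0.81 on log2 CPM, and miR-33-3p and miR-375-3p had 0.78. The strands of miR-14 had 0.40, and miR-14-5p with miR-278-3p 0.07. Of 85 entries with a mean of at least 50 CPM compared with each member, those most like miR-33-3p were miR-281-3p (0.91), miR-750-3p (0.91) and miR-14-3p (0.81), and those most like miR-375-3p were miR-281-3p (0.85), miR-750-3p (0.81) and miR-33-3p (0.78). miR-750-3p (0.84), miR-33-3p (0.81) and miR-281-3p (0.81) were most like miR-14-3p.

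The nearest to miR-14-5p were miR-31a-5p (0.78), miR-993-3p (0.75) and miR-281-5p (0.75), and to miR-278-3p miR-279c-3p (0.85), miR-9226 (0.76) and miR-375-3p (0.66). The 3 entries nearest to miR-14-3p and to miR-14-5p were thus different ones, although each set held a strand of the miR-281 hairpin. These are descriptions, in which all entries of a column share its depth and scaling.

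A list of 13 other miRNAs with metabolic or endocrine roles in insects was set beside the members. In pupae against larvae the median log2 change was -0.72 in the list and -0.15 over all entries. Of the 13, 3 rose (let-7-5p, miR-927a-3p and miR-9a-5p) and 3 fell, beside 17.9% of all 145 entries called higher and 22.1% called lower. Those that fell were miR-281-3p, a gut miRNA (-3.24, SE 0.55, edgeR adjusted p = 0.000765), miR-8-3p, which acts on insulin signalling in the fly fat body (-1.40, SE 0.32), and miR-184-3p (-1.25, SE 0.28). In adult workers against pupae miR-277-3p, which acts on branched-chain amino acid breakdown in flies (3.65, SE 1.01), and miR-34-5p (3.31, SE 0.84) rose and miR-8-3p (-1.53, SE 0.43) fell, with a median of -0.41 in the list and over all entries. Of all 145 entries 4.83% passed as higher and 2.76% as lower in adult workers. In queen pupae against pupae 0 of 13 passed, beside 2.24% of 134 entries.

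In organs, the tissue labels were first set beside marker miRNAs. Of the 5 brain markers 3 were listed by name, and their summed level was 41290 CPM in drone brain and 45360 CPM in worker brain, against 773 to 3891 CPM in other organs. The midgut marker miR-281-5p was highest in ventriculus, with 7511 CPM in drones and 8337 CPM in workers, and the ovary marker miR-989-3p in ovary, with 6996 CPM in queens and 12160 CPM in workers. The 2 muscle markers summed to 413200 CPM in drone rectum, 192900 CPM in worker rectum, 575100 CPM in drone mucus gland and 288900 CPM in worker venom gland, against 17210 to 82710 CPM in the other organs. In these 4 columns the sum was mostly miR-1-3p. miR-133-3p alone was highest in drone testis (12350 CPM) and drone brain (6729 CPM), against 961.8 to 4987 CPM in the 4 columns. miR-14-3p stood at 25410 to 61740 CPM in these 4 columns, and the part of muscle in its level was not tested.

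miR-14-3p was abundant in every organ, with ranks of 3 to 16 among 171 entries. It stood at 9745 CPM in queen ovary and 7017 CPM in worker ovary, the lowest columns with TMM. With library totals queen ovary was lowest at 9144 CPM, and worker ovary at 18710 CPM lay above worker ventriculus (16850 CPM) and drone testis (18560 CPM), so that the log2 ratio of queen to worker ovary was 0.47 with TMM and -1.03 with library totals. Brain had 56210 CPM in drones and 23660 CPM in workers, ventriculus 50550 CPM in drones and 18850 CPM in workers, and rectum 35850 CPM in drones and 25410 CPM in workers. Drone testis had 12930 CPM, worker venom gland 35610 CPM and drone mucus gland 61740 CPM, the highest. Drone rectum and worker venom gland were the only neighbours in this order whose counting intervals overlapped.

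miR-375-3p was high in ventriculus and venom gland. It stood at 13320 CPM in drone ventriculus and 15800 CPM in worker ventriculus, and at 19060 CPM in worker venom gland, the highest column. Rectum had 1310 CPM in drones and 3901 CPM in workers, ovary 511 CPM in queens and 394 CPM in workers, drone testis 815 CPM and drone mucus gland 2708 CPM. With library totals worker ovary (1052 CPM) lay above queen ovary (479.4 CPM) and drone rectum (935.5 CPM). Brain had 145 CPM in drones, the lowest column, and 3737 CPM in workers, a log2 ratio of -4.68 (-4.82 to -4.55). The midgut marker miR-281-5p was at 40.9 CPM in drone brain and 165 CPM in worker brain, and its part in this difference was not tested.

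miR-33-5p, the strand counted in organs, was highest in testis and queen ovary. It had 323 CPM (2289 counts) in drone testis and 300.1 CPM (1069 counts) in queen ovary, whose intervals overlapped with TMM (464 and 282 CPM with library totals), and 28.8 CPM (41 counts) in worker ovary. Queen ovary was 10.4-fold above worker ovary, or a log2 ratio of 3.38 (2.93 to 3.87) with TMM and 1.88 with library totals; the TMM factor of worker ovary was 2.67, the largest of the organs. Drone mucus gland had 101 CPM and drone ventriculus 98.7 CPM. The other columns lay between 13.0 CPM in drone brain (48 counts) and 63.5 CPM in worker rectum (13 counts), and 8 of 10 neighbours in the order overlapped.

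**Figure D5:**
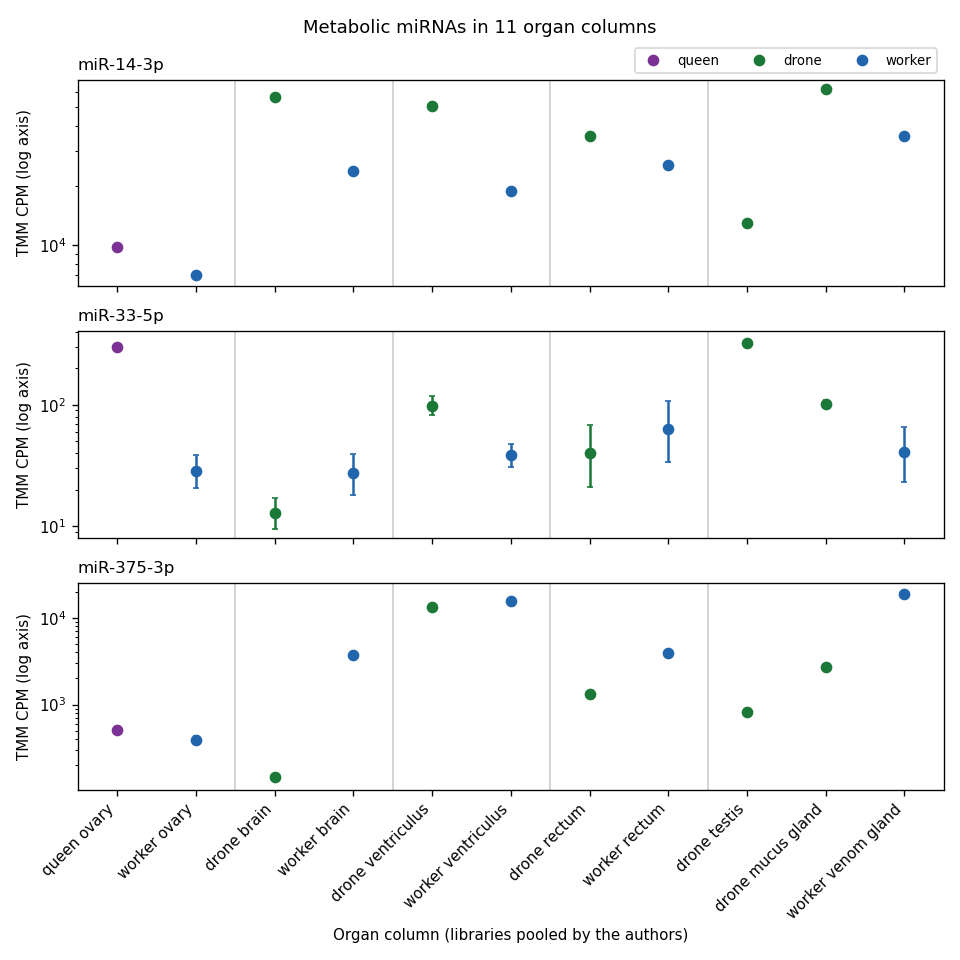
Levels of the 3 members listed in organs as TMM-scaled CPM on a log axis, with exact 95% counting intervals; grey lines separate ovary, brain, ventriculus, rectum and other organs. miR-375-3p was lowest in drone brain (145 CPM) and miR-33-5p highest in drone testis and queen ovary (323 and 300.1 CPM).

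The organ comparisons were fitted over 11 columns with 3 residual degrees of freedom, and none of the 3 members passed in any of the 4. In brain against gut, miR-375-3p had a log2 change of -2.57 (SE 1.18, edgeR adjusted p = 0.265), miR-33-5p of -1.60 (SE 1.36) and miR-14-3p of 0.24 (SE 0.38), beside 9.63% of 135 entries called, 5.93% as higher and 3.7% as lower in brain. No entry was called when any 1 of the 6 brain and gut columns was left out. Brain and gut columns did not overlap for miR-33-5p alone of the members, and for 38.0% of all entries. For miR-33-5p this was unresolved by counting error. The interval of worker brain (18.0 to 39.74 CPM) overlapped those of worker ventriculus (30.62 to 48.05 CPM) and drone rectum (21.24 to 68.2 CPM). With library totals worker brain had 28.07 CPM and drone rectum 28.48 CPM. In ventriculus against rectum, miR-375-3p had a change of 2.93 (SE 1.19, edgeR adjusted p = 0.445), with ventriculus above rectum by 10.2-fold in drones and by 4.05-fold in workers. Its columns did not overlap, as for 48.5% of all entries. Changes were 0.02 (SE 0.44) for miR-14-3p and 0.46 (SE 1.49) for miR-33-5p.

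In ovary against brain and gut, miR-375-3p had a change of -3.98 (SE 1.21) and miR-14-3p of -1.44 (SE 0.42), both with an edgeR adjusted p of 0.178, and miR-33-5p of 1.92 (SE 1.31), while the median over all entries was 0.88. DESeq2 called miR-375-3p (adjusted p 0.00211) and miR-14-3p (0.0163) in this comparison, among 46 of 135 entries that it called. Without queen ovary the change of miR-33-5p was -0.54.

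In drone against worker organs, miR-14-3p was 56210, 50550 and 35850 CPM in drone brain, ventriculus and rectum, against 23660, 18850 and 25410 CPM in worker brain, ventriculus and rectum. The groups did not overlap, as for 4.68% of all entries, and the log2 change was 1.06 (SE 0.36, edgeR adjusted p = 1, unadjusted p = 0.0348). With library totals the drone rectum was below the worker rectum (log2 ratio -0.14) and the groups overlapped. miR-375-3p was lower in drones in 3 of 3 organs (-2.06, SE 1.05), by log2 ratios of -4.68 in brain, -1.57 in rectum and -0.25 in ventriculus. miR-33-5p had a change of -0.14 (SE 1.24).

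For ventriculus against rectum, ovary against brain and gut, and drone against worker organs edgeR called 0 of 135 entries (0.0%), with 15, 35 and 2 at an unadjusted p under 0.05, and DESeq2 called 16, 46 and 2. Over the 11 organ columns the members had Spearman rho of -0.08 (miR-14-3p with miR-33-5p), 0.19 (miR-14-3p with miR-375-3p) and 0.11 (miR-33-5p with miR-375-3p). Of 95 entries, those most like miR-14-3p were miR-6000-3p (0.82), miR-277-3p (0.80) and the muscle miRNA miR-1-3p (0.60), those most like miR-375-3p were miR-8-3p (0.79), miR-316-5p (0.78) and miR-3759-3p (0.73), and those most like miR-33-5p were miR-996-3p (0.74), miR-1175-3p (0.68) and miR-275-3p (0.67). Of the 13 other miRNAs 11 were listed in organs, and none passed in any of the 4 comparisons.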

How the data were processed

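Small RNA libraries were made from 1 ug of Trizol-extracted RNA, per the labels' protocols. The authors deposited miRNA read counts in 2 sheets with 1 pooled column per group, and counts of sequenced reads per library, here joined by group name. Per the submitters' processing notes, bcl2fastq and kallisto were used; their versions and settings and a genome build are not given in the sources used here.

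Counts were scaled by TMM and tested with edgeR 4.0.16 in R 4.3.3 (quasi-likelihood, two-sided); filterByExpr kept entries at a minimum count of 10, with Benjamini-Hochberg adjustment over all entries and calls at 0.05. The SE is the log2 change over the square root of F. The design had been written for columns or libraries; as columns are pooled, p-values measure the spread between columns. The 2 comparisons among larvae, pupae and workers shared a model of 8 stage classes over 18 columns (10 residual degrees of freedom), queen pupae from 6 columns with eye colour as a term (2), and organs from 11 columns with 7 organ classes and a drone term (3). Strand balance in organs was not analysed here, as 1 strand per hairpin was listed among members. Scripts were tested on simulated data. Named miRNAs were the members, the list of 13 and, for each member, the 3 entries of highest Spearman rho. The members and lists were chosen with earlier results of these data known. Duplexes came from RNAduplex of ViennaRNA 2.7.2, DESeq2 was 1.42.0 and exact tests used SciPy 1.17.1. Alternatives were DESeq2 size factors, library totals, no filter, DESeq2, other columns or terms, and each column left out.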

Additional observations from a re-analysis of the deposited data

Results flagged for a closer look

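Among organs, 3 of 9 differences checked between organs had opposite directions in drones and workers, and none of these was tested, since each organ had 1 column per kind of bee. miR-14-3p in brain against rectum had a log2 ratio of 0.65 in drones and -0.10 in workers. miR-14-3p in ventriculus against rectum had 0.50 in drones and -0.43 in workers. miR-33-5p in ventriculus against rectum had 1.31 in drones and -0.72 (-1.57 to 0.25) in workers, the rectum columns holding 13 counts each. Its direction in workers was thus unresolved by counting error. Of 15 sets of larval, pupal or gut values examined, none had a column far from the others by Dixon's test. With 4 or 5 columns per set the test can flag only a wide gap, so this does not show that the columns were alike.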

How the results depend on the processing

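Over 27 tests of members, 322 values under alternatives kept their direction with the exception of 18 with 1 column left out and 1 with library totals; the causes of changed calls were not tested. For pupae against larvae 58 entries were called, with 42 to 59 when 1 column was left out and 50 without the 5 columns of low yield (egg, QL, QW, QR and QA), an alternative chosen after seeing the data. For adult workers against pupae 11 entries were called, but 19 with library totals, 29 with DESeq2, 0 with only the columns compared, and 0 (without OA or R) to 39 (without YA) when 1 column was left out. For queen pupae against pupae 3 were called, but 0 with DESeq2 size factors, with library totals, without a filter or without the eye colour term, 5 with DESeq2, and 0 to 63 (without QDR or DR) when 1 column was left out.

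For brain against gut 13 were called, but 38 with DESeq2, 23 with organ class only and 0 when any 1 column was left out. For ventriculus against rectum 0 were called, but 2 with library totals, 16 with DESeq2 and 2 with organ class only. For ovary against brain and gut 0 were called, but 46 with DESeq2, 21 with organ class only, and 0 to 28 (without worker ovary; 21 without queen ovary) when 1 column was left out. For drone against worker organs 0 were called, and 2 with DESeq2.

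Directions turned as follows. With library totals miR-14-3p in ventriculus against rectum was -0.17. When 1 column was left out, log2 changes in adult workers against pupae ranged from -2.06 to 1.65 for miR-14-5p and from -1.28 to 0.88 for miR-278-3p. In queen pupae against pupae they ranged from -0.15 to 0.46 for miR-14-3p and from -0.031 to 0.27 for miR-278-3p. In ventriculus against rectum they ranged from -0.39 to 0.45 for miR-14-3p and from -0.83 to 1.40 for miR-33-5p. For miR-33-5p they ranged from -0.54 to 2.79 in ovary against brain and gut and from -0.88 to 0.36 in drone against worker organs. The strand balance of miR-14 differed by -1.39 to -0.20 between pupae and larvae.

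No paired analysis was possible because the sheets hold 1 pooled column per group and so carry no replicate numbers; eye colour and organ class, which match columns across groups, were terms of the fits. The planned strand balance of miR-14 in brain and gut could not be run, as 1 strand is listed there. Depth limits miR-33-3p in QA (3 counts) and miR-33-5p in both rectum columns (13 counts each).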
